A study of Homo sapiens with 4 samples.

Results

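The nuclear genes for the subunits of the oxidative phosphorylation (OXPHOS) machinery were examined in confluent IMR-90 fibroblasts, a cell line from human fetal lung, with and without an RB1 knockout. Members were the protein-coding genes whose symbols begin with NDUFA, NDUFB, NDUFC, NDUFS, NDUFV, UQCR, COX4I, COX5, COX6, COX7, COX8 or ATP5, together with SDHA to SDHD and CYC1. Assembly factors named NDUFAF were not members. This rule, which uses names and no measured value, gave 91 of the 57820 genes in the count table, with 40 in complex I, 4 in complex II, 10 in complex III, 17 in complex IV and 20 in complex V. RNA from 2 RB1 KO libraries and 2 wild-type (WT) libraries was sequenced after removal of ribosomal RNA. The RB1 KO cells were a puromycin-selected pool carrying Cas9 and a guide at the RB1 start codon, and no transduced and selected control was described for the WT cells. Effects of transduction or selection and of RB1 loss therefore cannot be told apart.

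Gene counts totalled 33480111 and 34247292 for the RB1 KO pair of libraries and 32827737 and 30873239 for the WT pair, each with replicate 1 first. RB1 itself was at 85.3 and 79.0 CPM (counts scaled to the size of the library) in the RB1 KO libraries, against 76.5 and 75.2 CPM in the WT libraries, so its transcript level does not check the genotype. The 11 fibroblast markers summed to 47124 and 42076 CPM in RB1 KO cells and to 34383 and 36288 CPM in WT cells, and 1 of them, LUM, was higher in RB1 KO (log2 fold change 0.68, adjusted p = 0.0245, edgeR). The 6 epithelial markers summed to 31.6 and 39.7 CPM in RB1 KO and 53.4 and 40.9 CPM in WT, none passed, and CDH1 and SFTPC had no count. The endothelial markers summed to 5.14 and 3.64 CPM in RB1 KO and 1.53 and 1.82 CPM in WT. KDR was higher in RB1 KO (log2 fold change 1.84, adjusted p = 0.0393, edgeR), VWF did not pass (0.89, adjusted p = 0.191) and CDH5 had no count. Of 4 smooth muscle markers, which summed to 506 and 657 CPM in RB1 KO and 559 and 386 CPM in WT, MYH11 and DES were lower in RB1 KO cells (changes of -0.85 and -1.68 on the log2 scale, with p adjusted in edgeR of 0.0487 and 0.0761), while ACTA2 (0.37) and CNN1 (0.16) did not pass. The 4 immune markers summed to 0.396 and 0.451 CPM in RB1 KO and 0.150 and 0.377 CPM in WT. For the 6 striated muscle markers the sums were 1.46 and 0.961 CPM in RB1 KO and 1.35 and 1.98 CPM in WT. Only 1 immune and 2 striated muscle markers had enough counts to test, and none passed. The part of all these markers in the values given here was not tested. In these bulk samples a smaller number of cells of a kind and less RNA per cell cannot be told apart. Whether the replicates were separate cultures is not stated, and the p-values here rest only on how far libraries of a genotype lay apart, which could be technical.

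Oxidative phosphorylation takes place in the inner mitochondrial membrane. Complex I accepts electrons from NADH and complex II from succinate, complex III passes them from ubiquinol to cytochrome c, and complex IV hands them to oxygen. Complexes I, III and IV pump protons, and complex V, the ATP synthase, uses the resulting gradient to make ATP. Most subunits are encoded in the nucleus, translated in the cytosol and imported, whereas a small core of complexes I, III, IV and V is encoded by mitochondrial DNA. The factors NRF1, GABP (an ETS family factor) and YY1 are known to bind the promoters of many of the nuclear genes. In muscle and heart some complex IV subunits are replaced by tissue isoforms.

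Promoters are shown for the 4 complex V genes with the smallest p-values in the comparison of RB1 KO with WT. Of these, ATP5MC2 and ATP5ME passed an adjusted p of 0.1 in edgeR, while ATP5MG and ATP5PO did not. They were taken from RefSeq (GRCh38.p14) and run from 250 bases before to 50 bases after the annotated start, with capitals marking matches on either strand to GCGC, any base and TGCGC in a row for NRF1 or CCGGAAG for ETS factors. ATP5MC2 has 3 annotated windows, of which the first is given. ATP5MC2 encodes subunit c of the rotating ring, ATP5ME and ATP5MG encode the small membrane subunits e and g, and ATP5PO encodes the stalk subunit OSCP.
ATP5MC2, chr12:53676034-53676333, minus strand: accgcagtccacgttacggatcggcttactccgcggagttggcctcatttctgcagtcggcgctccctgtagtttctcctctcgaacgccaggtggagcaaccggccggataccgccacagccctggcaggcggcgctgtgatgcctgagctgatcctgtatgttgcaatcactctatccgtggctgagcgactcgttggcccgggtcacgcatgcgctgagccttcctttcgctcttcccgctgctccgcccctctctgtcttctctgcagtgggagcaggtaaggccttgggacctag
ATP5ME, chr4:674227-674526, minus strand: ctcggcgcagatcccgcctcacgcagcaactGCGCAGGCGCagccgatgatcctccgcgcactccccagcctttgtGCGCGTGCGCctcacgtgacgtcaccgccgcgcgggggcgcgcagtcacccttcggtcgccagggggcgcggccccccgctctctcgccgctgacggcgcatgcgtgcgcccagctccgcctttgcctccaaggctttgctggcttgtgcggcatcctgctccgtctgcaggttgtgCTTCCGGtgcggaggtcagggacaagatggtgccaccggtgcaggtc
ATP5MG, chr11:118401356-118401655, plus strand: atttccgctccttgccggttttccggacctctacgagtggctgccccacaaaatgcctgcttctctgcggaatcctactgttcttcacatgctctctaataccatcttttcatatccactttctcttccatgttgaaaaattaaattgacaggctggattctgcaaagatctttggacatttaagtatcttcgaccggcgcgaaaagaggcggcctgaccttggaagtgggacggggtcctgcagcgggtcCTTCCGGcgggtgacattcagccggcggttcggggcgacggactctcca
ATP5PO, chr21:33915755-33916054, minus strand: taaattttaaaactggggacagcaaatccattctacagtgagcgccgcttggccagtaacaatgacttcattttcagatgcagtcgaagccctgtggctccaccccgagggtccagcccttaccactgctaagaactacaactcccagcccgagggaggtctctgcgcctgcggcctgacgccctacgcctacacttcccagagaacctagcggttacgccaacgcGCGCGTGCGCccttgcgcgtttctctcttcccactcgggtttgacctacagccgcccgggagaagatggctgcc

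Of the 91 members, 71 could be matched to a RefSeq promoter by symbol, with 84 windows between them. The NRF1 letters were found in 17 of the 84 windows (20.2%), against 5.78% of all 35116 windows and 7.39% of the windows of protein-coding genes. ETS letters were found in 22 windows (26.2%), against 10.3% of all windows and 12.8% of protein-coding windows. The letters AAGATGGC, searched on both strands for YY1 and not marked in the sequences, were found in 13 windows (15.5%), against 2.89% of all windows and 3.53% of protein-coding windows. The ATP5ME window held 2 NRF1 matches and 1 ETS match, that of ATP5PO 1 NRF1 match, that of ATP5MG 1 ETS match, and that of ATP5MC2 none of either. Members differed little in their change between RB1 KO and WT by these letters. The median log2 fold change was -0.09 over 16 tested members with an NRF1 match and -0.09 over 50 without one, -0.12 over 21 with an ETS match and -0.08 over 45 without one, and -0.10 over 12 with a YY1 match and -0.09 over 54 without one. A match is a description of the letters and not of binding.

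The comparison of RB1 KO with WT asks which subunit genes changed with the knockout. ATP5MC2 and ATP5ME, both of complex V, were lower in RB1 KO cells, and no member was higher. Of 84 members with enough counts to test, 2 fell (2.38%, against 0.907% of all 16426 genes tested), 0 rose (against 1.99%), and 82 did not pass an adjusted p of 0.1 in the quasi-likelihood test of edgeR, adjusted by Benjamini-Hochberg over all genes tested. Over both directions 2.9% of all genes tested passed. At an unadjusted p under 0.05 in the same test, 13 members were lower (15.5%, against 7.16% of all genes tested) and 0 were higher (against 8.16%). Both RB1 KO libraries lay below both WT libraries in CPM for 34 members (40.5%, against 24.3% of all genes tested) and above them for 7 (against 22.5%). A negative log2 fold change was found for 58 members (69.0%, against 51.7%). Their median transcript had 760.5 bases, and short genes were more often negative. Among protein-coding genes tested, 81.0% of those under 600 bases and 68.4% of those of 600 to 1200 bases had a negative value. The shifts were small, with a median log2 fold change of -0.09 over the tested members, against -0.01 over all genes tested. DESeq2 called 3 members lower (ATP5MC2, ATP5ME and NDUFS5, against 0.539% of all genes) and limma-voom 1 (ATP5MC2, against 0.804%). In edgeR 10 members were lower without RB1 KO replicate 2, where 3.83% of all genes were called lower, and 0 without WT replicate 1, where 0.402% were.

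**Figure D1:**
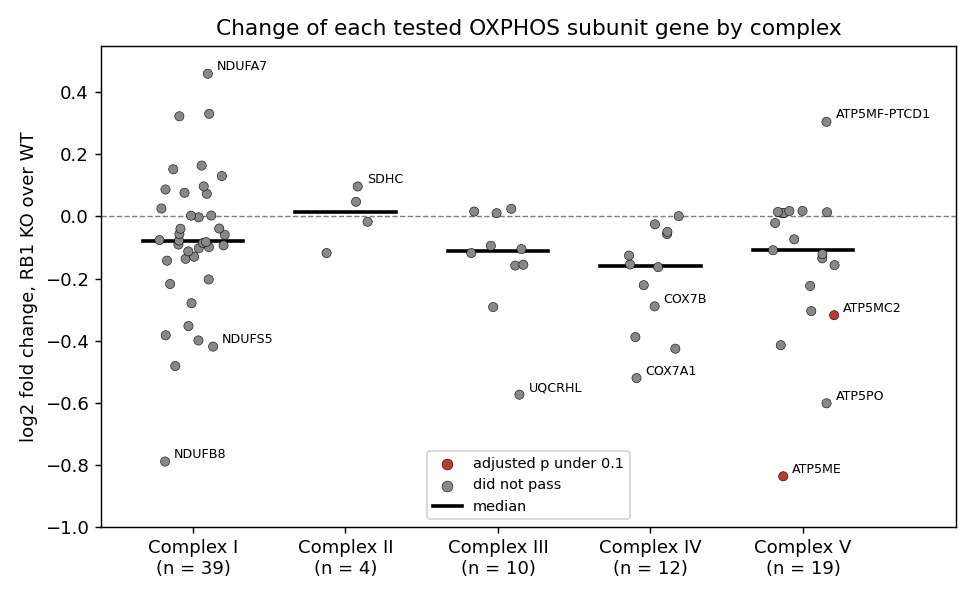
Log2 fold change of RB1 KO over WT (vertical axis) for the 84 tested subunit genes, grouped by complex, with a bar at the median of each complex. The medians lay between -0.16 for complex IV and 0.02 for complex II, and the red points are ATP5MC2 and ATP5ME, which passed an adjusted p of 0.1.

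By complex, the median log2 fold change was -0.08 for the 39 tested members of complex I, 0.02 for the 4 of complex II, -0.11 for the 10 of complex III, -0.16 for the 12 of complex IV and -0.11 for the 19 of complex V. Complex IV had negative values for 11 of its 12 tested members (91.7%, against 51.7% of all genes tested). Its median transcript had 660 bases, and 68.4% of protein-coding genes of 600 to 1200 bases had negative values. Both RB1 KO libraries lay below both WT libraries for 7 of the 12 tested members of complex IV (58.3%, against 24.3% of all genes tested). The same separation was seen for 14 members of complex I (35.9%), 1 of complex II (25%), 4 of complex III (40%) and 8 of complex V (42.1%). All 7 members with both RB1 KO libraries above both WT libraries belonged to complex I (NDUFA5, NDUFA7, NDUFA8, NDUFB5, NDUFB6, NDUFC2 and NDUFV2). They were 7 of its 39 tested members, while 22.5% of all genes tested showed this separation, so they were no excess. Complex IV took 13.9% and 14.3% of the summed CPM of all members in the RB1 KO libraries, against 14.7% and 14.4% in the WT libraries. Complex V took 38.3% and 38.1% in the RB1 KO libraries, against 38.0% and 37.7% in the WT libraries. For both, the groups did not overlap, but those of complex V were only just apart, at 38.05% in RB1 KO replicate 2 and 38.04% in WT replicate 1. The exact two-sided permutation test over the 4 libraries gave p = 0.333 for each, the smallest p that 2 against 2 libraries allow, and 0.833 after Benjamini-Hochberg adjustment over the 5 complexes. For complexes I, II and III the groups overlapped, and the share of complex I differed between RB1 KO and WT by -0.02 percentage points.

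Complex V held both genes that passed. ATP5MC2 (ENSG00000135390.13, chr12:54026510-54071192 on GRCh37) was at 67.3 and 69.8 CPM in the RB1 KO libraries, against 86.8 and 84.2 CPM in the WT libraries. The groups were well apart and the replicates close, at 68.6 ± 1.80 CPM in RB1 KO and 85.5 ± 1.82 CPM in WT (SD, n = 2 each). On the log2 scale ATP5MC2 changed by -0.32 with a standard error of 0.0689 (edgeR, adjusted p = 0.0766). ATP5ME (ENSG00000169020.5, chr4:666225-668119 on GRCh37) was at 4.02 and 5.05 CPM in the RB1 KO libraries, against 9.19 and 7.01 CPM in the WT libraries. Both RB1 KO libraries were lower than both WT libraries, although the WT libraries themselves were spread. On the same scale ATP5ME changed by -0.84 with a standard error of 0.190 (edgeR, adjusted p = 0.0889). ATP5ME rests on 132 and 168 counts in RB1 KO and 306 and 223 counts in WT. Of its exon bases, 39.6% lie opposite another gene, MYL5, and the strand counted is not stated. MYL5 was at 6.42 and 5.65 CPM in RB1 KO, against 5.11 and 7.01 CPM in WT, with groups that overlapped.

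The call of ATP5MC2 was lost in edgeR without RB1 KO replicate 1 (adjusted p = 0.155), without WT replicate 1 (0.340) and without WT replicate 2 (0.131), and that of ATP5ME without WT replicate 1 (0.314). With the trend of change with transcript length taken out, the log2 fold changes were -0.22 for ATP5MC2 and -0.72 for ATP5ME, and neither passed in edgeR (adjusted p = 0.184 and 0.137).

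**Figure D2:**
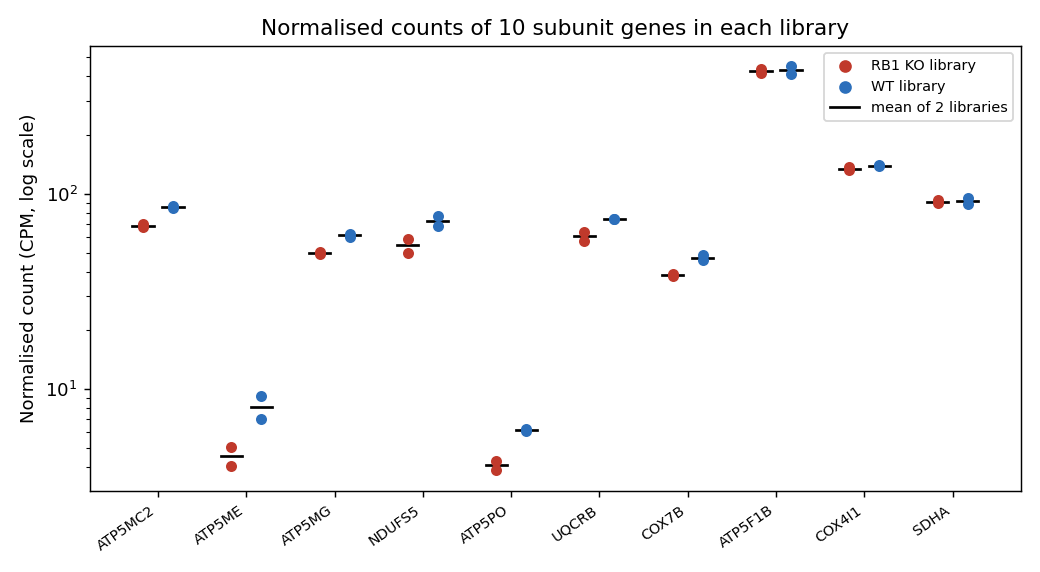
Normalised counts (CPM, log scale) of 10 subunit genes, with 1 point per library, RB1 KO in red on the left and WT in blue on the right of each gene, and a bar at the mean of 2 libraries. For the 7 genes on the left the RB1 KO and WT points were apart, while those of ATP5F1B and SDHA overlapped and those of COX4I1 differed by a log2 fold change of only -0.05.

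Within the ATP synthase the medians differed by part of the enzyme. The 5 small membrane subunits ATP5ME, ATP5MF, ATP5MG, ATP5MJ and ATP5MK had a median log2 fold change of -0.31, the 3 c-ring genes -0.16, the 4 stalk genes -0.06 and the 5 genes of the catalytic F1 part -0.02. Single genes crossed this order, with the stalk gene ATP5PO at -0.60 and the membrane subunit genes ATP5MK and ATP5MC3 at 0.01 and 0.02. The median transcript length rose in the same order of parts, at 615, 646, 682.5 and 1759 bases, and its part in these medians was not tested. For the small membrane subunits the median log2 ratio of replicate 1 to replicate 2 was -0.17 in RB1 KO and 0.18 in WT. ATP5MG was at 50.5 and 49.0 CPM in the RB1 KO libraries, against 60.4 and 62.5 CPM in the WT libraries. Its groups did not overlap, and its log2 fold change of -0.31 just missed the threshold in edgeR (adjusted p = 0.103). ATP5PO was at 3.84 and 4.30 CPM in RB1 KO, against 6.10 and 6.25 CPM in WT, with a log2 fold change of -0.60 that did not pass (adjusted p = 0.125, edgeR). The catalytic beta subunit ATP5F1B, the member with the highest count, was at 414 and 435 CPM in RB1 KO, against 451 and 410 CPM in WT. Its groups overlapped, as did those of the alpha subunit ATP5F1A, at 389 and 372 CPM in RB1 KO against 373 and 379 CPM in WT. The log2 fold changes were -0.02 and 0.01, with standard errors of 0.0808 and 0.0721. ATP5IF1, which blocks the enzyme when it runs in reverse, was at 15.0 and 17.3 CPM in RB1 KO, against 18.7 and 18.95 CPM in WT, and did not pass (adjusted p = 0.375, edgeR).

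Subunit c is encoded by the paralogs ATP5MC1, ATP5MC2 and ATP5MC3, whose mature proteins are identical. ATP5MC2 made up 39.0% and 38.4% of the counts of these genes in the RB1 KO libraries, against 43.8% and 43.7% in the WT libraries. ATP5MC3 made up 49.4% and 51.0% in RB1 KO, against 44.8% and 45.3% in WT. ATP5MC1 stayed between 10.6% and 11.6% in all 4 libraries. The level of ATP5MC3 was 85.3 and 92.9 CPM in RB1 KO and 88.8 and 87.3 CPM in WT (log2 fold change 0.02), so that the shares moved with ATP5MC2. The summed CPM of the 3 genes was 172.7 and 182.1 in RB1 KO, against 198.3 and 192.7 in WT.

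Complex I had no member that passed. NDUFS5, an accessory subunit on the intermembrane side, was at 50.02 and 59.0 CPM in the RB1 KO libraries, against 77.4 and 68.4 CPM in the WT libraries. Its groups did not overlap, with a log2 fold change of -0.42 (adjusted p = 0.107, edgeR). NDUFB1, of the membrane arm, was at 10.9 and 14.1 CPM in RB1 KO, against 16.1 and 16.8 CPM in WT (log2 fold change -0.40, adjusted p = 0.214, edgeR). NDUFS6, an accessory subunit that binds zinc, was at 5.97 and 8.68 CPM in RB1 KO, against 10.7 and 9.77 CPM in WT (log2 fold change -0.48, adjusted p = 0.268, edgeR). In all 3 genes the lowest library was RB1 KO replicate 1. The 7 core subunits had a median log2 fold change of -0.04. The 32 other tested members with a complex I symbol, which include NDUFA4 and NDUFA4L2, had -0.09. NDUFB11, of the membrane arm, had the next highest level per length after NDUFS5 over all 4 libraries, with 35.7 and 38.1 CPM in RB1 KO, against 40.7 and 40.01 CPM in WT (log2 fold change -0.13, adjusted p = 0.502, edgeR). NDUFS1, the core subunit with the highest count, was at 182 and 166 CPM in RB1 KO and 162 and 169 CPM in WT, with overlapping groups. Of the 7 members with RB1 KO above WT in every library, NDUFA5, an accessory subunit of the peripheral arm, had a log2 fold change of 0.16 (adjusted p = 0.400, edgeR) with 44.3 and 42.4 CPM in RB1 KO, against 40.1 and 37.2 CPM in WT.

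The 4 genes of complex II, the succinate dehydrogenase of the citric acid cycle, had no mitochondrially encoded partner and none passed. SDHA, the flavoprotein, was at 89.3 and 92.6 CPM in RB1 KO and 88.7 and 95.4 CPM in WT, with overlapping groups and a log2 fold change of -0.02. SDHB, the iron-sulphur protein, was at 37.3 and 39.6 CPM in RB1 KO, against 42.4 and 41.1 CPM in WT, and was the only member of the complex whose groups did not overlap (log2 fold change -0.12, adjusted p = 0.538, edgeR). The membrane anchors SDHC and SDHD had log2 fold changes of 0.10 and 0.05, and their groups overlapped.

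In complex III, UQCRB, a subunit that helps to form the ubiquinone site, was at 57.1 and 63.9 CPM in the RB1 KO libraries, against 73.9 and 74.3 CPM in the WT libraries. The groups were apart and UQCRB changed by -0.29 on the log2 scale (edgeR, adjusted p = 0.137). CYC1, the cytochrome c1 that passes electrons on to cytochrome c, was at 40.2 and 46.5 CPM in RB1 KO and 51.2 and 45.3 CPM in WT, with overlapping groups. The core proteins UQCRC1 and UQCRC2 had log2 fold changes of 0.02 and 0.01, with standard errors of 0.0656 and 0.0655. UQCRFS1, the Rieske iron-sulphur protein, was at 63.6 and 70.1 CPM in RB1 KO, against 73.3 and 71.7 CPM in WT (log2 fold change -0.12), and the small subunit UQCR11 at 8.46 and 7.96 CPM in RB1 KO, against 9.52 and 8.80 CPM in WT (log2 fold change -0.16). Both had groups that were only just apart. UQCRHL, a retrocopy of the hinge protein gene UQCRH, was at 0.365 and 0.270 CPM in RB1 KO and 0.631 and 0.314 CPM in WT, and UQCRH itself at 53.4 and 53.4 CPM in RB1 KO and 51.7 and 54.0 CPM in WT.

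In complex IV, COX7B was at 39.0 and 38.0 CPM in the RB1 KO libraries, against 48.6 and 45.6 CPM in the WT libraries. Groups were apart, and COX7B changed by -0.29 on the log2 scale with a standard error of 0.0796 (edgeR, adjusted p = 0.139). COX7A2, the isoform of subunit VIIa found in most tissues, was at 62.0 and 65.7 CPM in RB1 KO, against 79.4 and 69.5 CPM in WT (log2 fold change -0.22, adjusted p = 0.275, edgeR). COX7A1, its heart and muscle isoform, was at 1.46 and 2.13 CPM in RB1 KO, against 2.46 and 2.703 CPM in WT (log2 fold change -0.52, adjusted p = 0.382, edgeR). COX7A1 made up 2.30% and 3.14% of the counts of the pair in RB1 KO and 3.01% and 3.74% in WT, so that the shares overlapped between genotypes. COX6B1, on the intermembrane side, was at 40.5 and 42.9 CPM in RB1 KO, against 48.9 and 43.999 CPM in WT (log2 fold change -0.15). COX7A2L, a related protein that joins complexes III and IV in supercomplexes, was at 55.6 and 58.1 CPM in RB1 KO and 58.8 and 54.9 CPM in WT. COX4I1, the common isoform of the subunit that is regulated by ATP, was at 132.7 and 136.8 CPM in RB1 KO, against 140.5 and 138.4 CPM in WT (log2 fold change -0.05, standard error 0.066). NDUFA4, which its symbol places in complex I but which is now counted as a subunit of complex IV, was at 89.3 and 90.1 CPM in RB1 KO, against 99.6 and 90.4 CPM in WT (log2 fold change -0.08). Moving it and its hypoxia-linked paralog NDUFA4L2 to complex IV left the medians at -0.16 for complex IV and -0.08 for complex I.

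The 7 members not tested were isoforms, copies or read-through genes. COX4I2, COX6A2 and COX7B2 had 0 counts in every library, which allows up to 3 counts or 0.0876 to 0.0972 CPM per library. The read-through gene NDUFC2-KCTD14 also had 0 counts, but shares 100% of its exon bases with other genes, so its count sets no limit on its level. COX6A2 is the muscle isoform of subunit VIa, COX4I2 a lung isoform of subunit IV and COX7B2 a testis isoform. COX6B2, a testis isoform, had 5 and 4 counts in RB1 KO and 1 and 0 counts in WT. COX8C had 2 and 3 counts in RB1 KO and 2 and 0 counts in WT, and ATP5MGL had 5 and 10 counts in RB1 KO and 4 and 8 counts in WT.

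The 2 replicates of a genotype were not alike for these genes. RB1 KO replicate 1 was the lowest of the 4 libraries for 47 of the 84 tested members, and WT replicate 1 was the highest for 45. In complex V, the median log2 ratio of RB1 KO replicate 1 to replicate 2 was -0.12 and that of WT replicate 1 to replicate 2 was 0.10, against a median log2 fold change of -0.11 between the genotypes. In complex IV these ratios were -0.08 within RB1 KO and 0.10 within WT. Over all tested members they were -0.06 and 0.05. The differences between replicates were of the same size as the medians between genotypes in complex V. Summed over all members, the level was 4067 and 4199 CPM in RB1 KO, against 4399 and 4224 CPM in WT, and the sum in RB1 KO replicate 2 lay close to that in WT replicate 2. Without RB1 KO replicate 1 the median over all members was -0.04, and without WT replicate 1 it was -0.05.

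**Figure D3:**
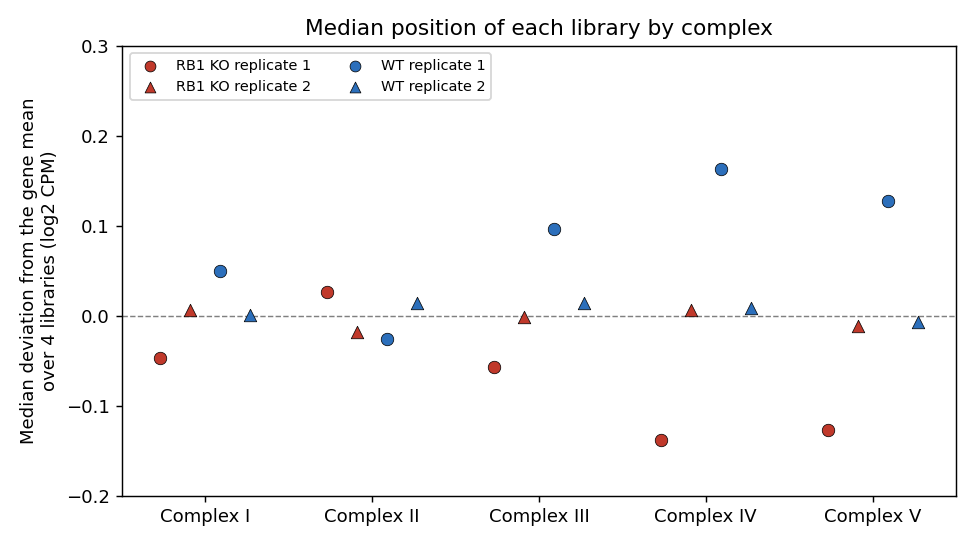
Median deviation of each library from the gene mean over the 4 libraries (log2 CPM, vertical axis) for the tested members of each complex, with RB1 KO in red, WT in blue, circles for replicate 1 and triangles for replicate 2. In complexes I, III, IV and V, RB1 KO replicate 1 was lowest and WT replicate 1 highest, with both replicates 2 near 0.

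Members were also grouped by transcript length. The 23 tested members with a canonical transcript under 600 bases had a median log2 fold change of -0.22, the 33 members of 600 to 1200 bases -0.10 and the 28 longer members -0.01. The same bins over all protein-coding genes tested gave -0.18 (158 genes), -0.09 (850 genes) and 0.01 (11736 genes). Negative values were found for 18 of the 23, 26 of the 33 and 14 of the 28 members. In the same bins they were found for 81.0%, 68.4% and 48.6% of protein-coding genes. The medians of the members thus lay close to those of protein-coding genes of the same length, a set that includes the members themselves. Across the 84 members, which share libraries and depth and are not independent, Pearson's r between log2 fold change and log10 length was 0.35 and Spearman's rho 0.41. Length also separated the replicates. The median log2 ratio of RB1 KO replicate 1 to replicate 2 was -0.20, -0.09 and -0.01 in the 3 bins of members, and that of WT replicate 1 to replicate 2 was 0.08, 0.07 and 0.03. With the length trend over all genes taken out, 0 members passed in edgeR, where 0.798% of all genes were called lower. At an unadjusted p under 0.05, 7 members were lower and 0 higher. The share of all genes is not given for this fit, so these counts cannot be read as a result about the members. The median over members was -0.02, against 0.01 over all genes tested. By complex the medians were then -0.0054 for complex I, 0.06 for complex II, -0.06 for complex III, -0.07 for complex IV and -0.01 for complex V. The median transcript length was 696 bases in complex I, 1324 in complex II, 1436 in complex III, 660 in complex IV and 756 in complex V. The part of transcript length in the lower values in RB1 KO was not tested beyond this.

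**Figure D4:**
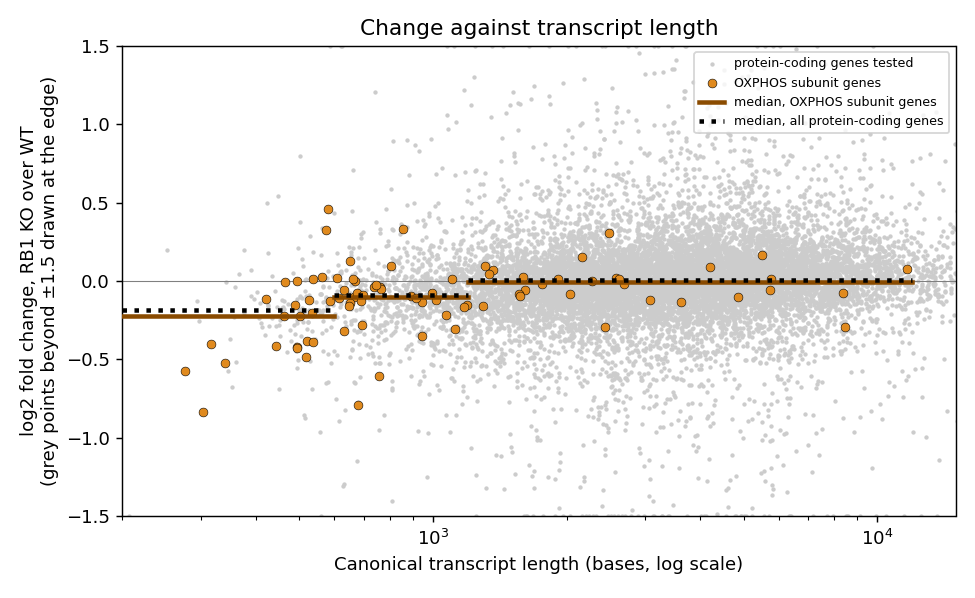
Log2 fold change of RB1 KO over WT (vertical axis) against canonical transcript length (bases, log scale) for the 84 tested members in orange and all protein-coding genes tested in grey. Brown and dotted black lines give the medians of members and of all protein-coding genes in 3 length bins, which were -0.22 and -0.18 under 600 bases and both close to 0 from 1200 bases.

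Levels were compared between genes as CPM per kilobase of canonical transcript, leaving out members that share 20% or more of their exon bases with another gene on the same strand, since STAR does not count reads it cannot assign to 1 gene. The median level of complex IV subunits was 82.0 CPM per kb in RB1 KO and 88.7 CPM per kb in WT. Complex V followed with 50.2 in RB1 KO and 56.9 in WT, complex II with 37.9 and 40.5, complex III with 35.6 and 39.0, and complex I with 32.9 and 32.2 CPM per kb. Levels within complex V ran from ATP5ME at 15.0 in RB1 KO and 26.7 in WT to ATP5F1B at 241 in RB1 KO and 245 in WT. COX4I1, at 177 CPM per kb in RB1 KO and 183 in WT, was the highest in complex IV, and NDUFS5, at 110 in RB1 KO and 147 in WT, the highest in complex I. NDUFA9 was the lowest in complex I, at 0.626 in RB1 KO and 0.660 in WT, with 11.7% of its 8356 exon bases shared. The bound also kept NDUFC2 (19.7% shared) and UQCR11 (18.1% shared), so it did not remove all sharing. Transcript lengths came from another GENCODE release than the counts, and its part in these levels was not tested.

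Members sharing exon bases had low levels in both genotypes. The 6 tested members with at least 60% of their exon bases shared (NDUFA7, NDUFA11, NDUFA13, NDUFB8, NDUFV2 and ATP5PO, with the read-through gene ATP5MF-PTCD1 left out) had a median of 2.17 CPM per kb in RB1 KO and 2.21 in WT. The 4 members with 20% to 60% shared (SDHD, COX6A1, COX8A and ATP5MF) had 16.97 in RB1 KO and 18.5 in WT. The other 73 tested members had 36.4 in RB1 KO and 40.5 in WT. The widest log2 fold changes of complex I were found among the sharing genes, from NDUFB8 at -0.79 to NDUFA7 at 0.46, and NDUFB8 was at only 0.913 and 0.631 CPM in RB1 KO, against 1.29 and 1.38 CPM in WT. Leaving out all members with 20% or more shared kept the median at -0.09.

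**Figure D5:**
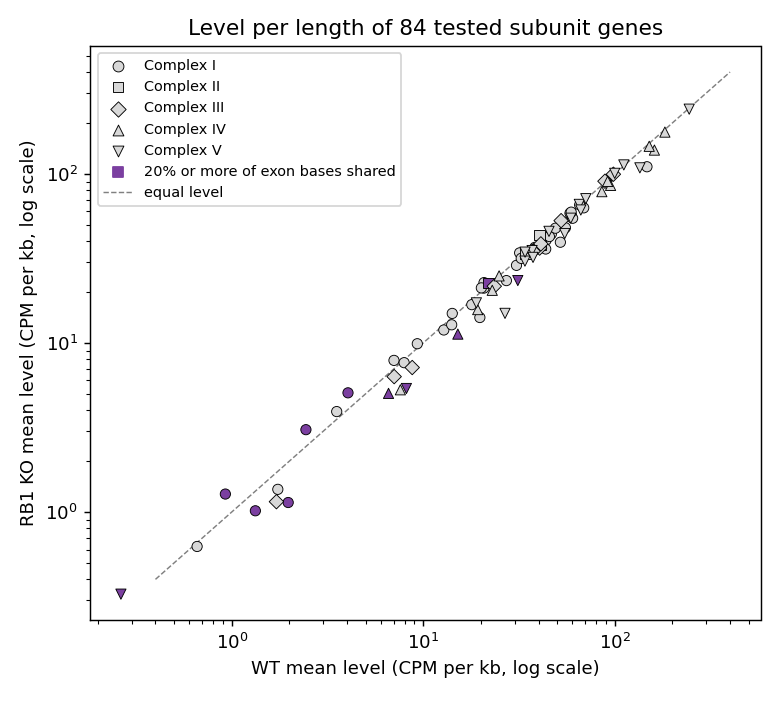
Mean level in RB1 KO (vertical axis) against mean level in WT (horizontal axis), both in CPM per kb on log scales, for 84 tested members, with a marker shape per complex and purple for members sharing 20% or more of their exon bases. Points lay along the line of equal level, from ATP5F1B at 241 in RB1 KO and 245 in WT downwards, and the purple points lay mostly below 10 CPM per kb.

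Other genes of the pathway were read from the same test. None of the 13 messenger RNAs of the mitochondrial genome passed (edgeR), and the median log2 fold change was -0.49. Their summed CPM, most of it from MT-CO1, was 5961 and 6426 in RB1 KO and 5903 and 7485 in WT, with overlapping groups. At an unadjusted p under 0.05, 8 of the 13 were lower (against 7.16% of all genes tested) and 0 higher (against 8.16%). MT-ND3, a complex I subunit with the smallest p, was at 11.8 and 15.1 CPM in RB1 KO, against 18.7 and 21.3 CPM in WT (adjusted p = 0.108, edgeR), and MT-CO1, the catalytic subunit of complex IV, at 4032 and 4101 CPM in RB1 KO and 3518 and 4516 CPM in WT. The groups of MT-ND3 were apart and those of MT-CO1 overlapped. MT-ND1, also of complex I, was at 40.2 and 55.2 CPM in RB1 KO, against 63.2 and 82.4 CPM in WT (log2 fold change -0.61, adjusted p = 0.137, edgeR). For these messenger RNAs the median log2 ratio of replicate 1 to replicate 2 was -0.42 in RB1 KO and -0.38 in WT, so that both replicates 1 were the lower ones, unlike the pattern of the nuclear members. The study kept only reads that aligned to a single place. Reads that fit several places are missing from these levels, and their part in the values was not tested. MT-ATP8 had only 2 and 7 counts in RB1 KO, against 15 and 25 counts in WT.

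None of 51 assembly factors, 14 transcription regulators, 16 carriers and coenzyme Q enzymes, 17 genes of the citric acid cycle and pyruvate dehydrogenase or 12 outer membrane and import genes tested passed in either direction (edgeR). At an unadjusted p under 0.05, 4 assembly factors were lower and 1 higher, 0 regulators lower and 1 higher, 1 carrier, 1 citric acid cycle gene and 2 import genes lower and 0 of these lists higher. Of all genes tested, 7.16% were lower and 8.16% higher at this threshold. The medians of log2 fold change were -0.07, 0.01, -0.13, -0.03 and -0.08 in the order of the lists. PPARGC1A, a coactivator that drives mitochondrial gene expression, was at 4.99 and 3.64 CPM in RB1 KO, against 1.74 and 3.33 CPM in WT (log2 fold change 0.77, adjusted p = 0.285, edgeR). Its relative PPARGC1B was at 0.578 and 0.841 CPM in RB1 KO, against 1.35 and 1.01 CPM in WT (log2 fold change -0.73, adjusted p = 0.364). Groups were apart for both, in opposite directions, at low levels. COA6, a copper factor for complex IV, was at 13.97 and 12.3 CPM in RB1 KO, against 17.1 and 18.1 CPM in WT (adjusted p = 0.129, edgeR), and NDUFAF3, an assembly factor of complex I, at 21.8 and 24.2 CPM in RB1 KO, against 29.7 and 26.5 CPM in WT (adjusted p = 0.231). Citrate synthase, CS, was at 109.7 and 118.6 CPM in RB1 KO, against 139.1 and 129.8 CPM in WT (adjusted p = 0.190, edgeR), and PDHX, of the pyruvate dehydrogenase complex, at 42.9 and 46.2 CPM in RB1 KO, against 40.5 and 39.2 CPM in WT (adjusted p = 0.406). The ADP/ATP carrier SLC25A6 was at 205 and 219 CPM in RB1 KO, against 249 and 242 CPM in WT (adjusted p = 0.208, edgeR), and COQ3, of coenzyme Q synthesis, at 5.91 and 6.01 CPM in RB1 KO, against 7.36 and 7.32 CPM in WT (adjusted p = 0.343). The import receptor TOMM22 was at 40.5 and 44.5 CPM in RB1 KO, against 51.6 and 48.3 CPM in WT, and the chaperonin HSPD1 at 247 and 267 CPM in RB1 KO, against 309 and 280 CPM in WT. In each of these genes the groups did not overlap, but the genes were picked as the 2 with the smallest p of each list. Of all genes tested, 24.3% had both RB1 KO libraries below both WT libraries and 22.5% above.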

How the data were processed

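Total RNA was depleted of ribosomal RNA and made into directional libraries. Per the labels and the study's methods, the authors aligned the reads to GRCh37 with STAR 2.7.2b and deposited whole-number gene counts over GENCODE v19, not normalized. The strand counted is not given in the sources used here. Lines for spike-ins and unassigned reads stayed out of library sizes and tests, and reads on no gene or on several genes took 13.0% to 15.6% and 2.06% to 2.17% of reads.

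Symbols, coordinates and canonical transcript lengths came from a GENCODE release mapped to GRCh37, which named 55538 of 57820 genes. RB1 KO was compared with WT in edgeR 4.0.16 (R 4.3.3, glmQLFit and glmQLFTest, TMM factors, filterByExpr set to at least 10 counts and a total of 15). Adjustment was by Benjamini-Hochberg over 16426 genes, with calls at an adjusted p under 0.1. CPM values use the TMM factors. Standard errors are the log2 fold change over the square root of F. The fit was tested on simulated data. Counts of replicates were further apart than sampling noise allows (chi-square per degree of freedom 17.5 in RB1 KO and 18.9 in WT).

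Alternatives were DESeq2 1.42.0, limma-voom (limma 3.58.1), other scaling factors, other filters, an adjusted p of 0.05, a replicate block and leaving out each library. Trends with length and GC (loess, span 0.5), a crossed block and the omission of members sharing exons were added after seeing the data. Members and lists were chosen with earlier results of these data known. Named genes are members that passed, the 4 smallest p and 2 highest levels per kb in each complex, paralogs, and the 2 smallest p of each other list. NDUFS1, NDUFA5, UQCRC2, ATP5F1A, ATP5IF1, MT-CO1, MYL5 and members named only in counts were chosen after their values were seen.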

Additional observations from a re-analysis of the deposited data

Results flagged for a closer look

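Spike-in RNA (ERCC), which enters no comparison above, was present in every library. Its counts came to 0.207% and 0.210% of the gene counts in RB1 KO replicates 1 and 2, against 0.187% and 0.135% in WT replicates 1 and 2. The WT replicates differed more from each other than WT replicate 1 did from the RB1 KO libraries, and how the spike-ins were added is not given in the sources used here.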

How the results depend on the processing

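No member was called higher under any alternative. Of the results that moved, the number of members called lower, 2 as reported, was 1 by limma-voom and with ERCC factors (0.804% and 1.02% of all genes), 7 with library totals (1.98%), 4 with upper-quartile factors (1.17%), 0 without a filter (0.303%), 0 at an adjusted p under 0.05, 0 with either trend removed and 0 to 10 with 1 library left out. By the unadjusted p under 0.05 in edgeR, 13 members were lower without a filter and 7 and 8 with the trends removed. The shares of all genes at this threshold are not given for these fits, so these counts cannot be read as a result about the members. The labels do not say whether replicate numbers pair the libraries. The correlation of deviations was -0.20 for equal numbers and 0.20 for crossed ones. With 2 libraries per group these mirror each other, so they cannot settle it. The number of members called lower was 0 with the replicate block, where 0.451% of all genes were called lower. It was 15 with a crossed replicate block added after seeing the data, where 8.29% were. ERCC factors put the median of all genes at -0.49, library totals at -0.08. With library totals the medians were -0.16 over members, -0.14, -0.051 and -0.18 for complexes I, II and III, and SDHD (-0.019), UQCRC1 (-0.041), ATP5MC3 (-0.049), UQCRH (-0.050) and COX7A2L (-0.065) turned negative. Upper-quartile factors turned ATP5MC3 (-0.0056), UQCRH (-0.0072) and COX7A2L (-0.022). With ERCC factors the medians were -0.56 over members and -0.55, -0.47, -0.58, -0.63 and -0.57 for complexes I to V, and SDHC (-0.38), SDHD (-0.43), UQCRC1 (-0.46), ATP5MC3 (-0.46), UQCRH (-0.47) and COX7A2L (-0.47) turned negative. With the length trend removed the medians were -0.017 over members, -0.0054, 0.058 and -0.015 for complexes I, II and V, and COX4I1 (0.036), ATP5F1B (0.026) and SDHA (0.0040) turned positive. Length and GC together gave -0.023 over members, 7.1e-05 and -0.059 for complexes I and III, and turned COX4I1 (0.050), ATP5F1B (0.039), SDHA (0.021), ATP5MC3 (-0.0055) and COX7A2L (-0.016). With the 3 scalings the turns go with the shift of all genes, and the cause of the others was not tested. With 1 library left out, the lone library of its group being taken to vary like the others, the medians ran from -0.12 to -0.036 over members, -0.087 to -0.0014 in complex I, -0.0062 to 0.049 in complex II, -0.15 to -0.040 in complex III, -0.24 to -0.062 in complex IV and -0.18 to -0.0055 in complex V. The turned genes ran from -0.087 to 0.060 (ATP5F1B), -0.042 to 0.080 (ATP5MC3), -0.047 to 0.063 (COX7A2L), -0.15 to 0.00044 (NDUFA4), -0.057 to 0.037 (SDHA), -0.017 to 0.12 (SDHD), -0.0043 to 0.049 (UQCRH) and -0.98 to 0.026 (UQCRHL). Depth limits COX7A1, UQCRHL and other members near 1 CPM most.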

Other observations

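Pseudogenes with symbols like those of the members held few counts. The study kept only reads that aligned to a single place, so reads fitting both a gene and its copy are missing. These counts therefore do not measure how far the copies are transcribed. Of 176 pseudogenes with an NDUF, UQCR, COX or ATP5 prefix of the rule, 41 had any count. Copies of SDHA to SDHD and CYC1 were not included. Together the 176 held 121 and 106 counts in the RB1 KO libraries, against 143 and 166 counts in the WT libraries. This was 0.0758% to 0.124% of the counts of the members.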
